A study of Mus musculus with 12 samples.

Results

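The genes described here are 10 that encode parts of the contractile apparatus of smooth muscle and of myofibroblasts: Acta2, Actg2, Tagln, Cnn1, Lmod1, Myh11, Myl9, Mylk, Ldb3 and Des. They were chosen by name, with earlier results of these data known, and are 10 of the 22180 genes measured. Each had 1 probe set assigned to its symbol alone, and that probe set was used. Des had a further probe set shared with Gm15179, which was not used.

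The data are 12 Affymetrix arrays of mouse cells, in 4 groups of 3 arrays. The cells were adipose precursors of the inguinal fat pad that had been differentiated into adipocytes. All groups carried the genotype R26Cre/Prdm16floxEx9, which by its name places Cre at the Rosa26 locus and loxP sites around exon 9 of Prdm16, a transcriptional regulator of the thermogenic fat programme. During growth the cells received ethanol (the groups EtOH and EtOH_Rosi) or 1 µM 4-hydroxytamoxifen (4OHT and 4OHT_Rosi) for 3 days. All were then differentiated in serum medium with insulin, T3, dexamethasone, indomethacin and isobutylmethylxanthine. The groups EtOH_Rosi and 4OHT_Rosi also received 1 µM rosiglitazone, a thiazolidinedione that activates the adipogenic receptor PPARγ. The treatment text of the labels names rosiglitazone for all 12 arrays, whereas the titles and sample characteristics name it for these 6 only, and the groups follow the titles and characteristics. No cells without the floxed allele were given 4-hydroxytamoxifen among these arrays, so recombination of Prdm16 and other effects of 4-hydroxytamoxifen or Cre cannot be told apart. The labels do not say whether replicates were separate cultures, so the p-values cover array-to-array spread that could be technical.

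In smooth muscle and in myofibroblasts, force is made by myosin filaments that pull on filaments of muscle actin. The regulatory light chain of myosin must be phosphorylated by a calcium-dependent kinase for this to happen, and actin-binding proteins such as calponin and transgelin sit along the thin filaments. Transcription of these genes is known to depend on serum response factor (SRF), which binds the CArG box, and on its coactivators of the myocardin family. In adipose tissue the genes are known as markers of vessel walls and of fibroblast-like precursors that have taken on a contractile state.

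Promoter windows, from 250 bases before to 50 after the annotated start, were found in RefSeq (GRCm38.p6) for 7 of the 10 genes. Those of Acta2, Myl9 and Ldb3 are shown because they were the windows with a CArG box, and because these genes differed in direction under rosiglitazone. Capitals mark a CArG box, exact or with at most 1 C or G in its A/T core; the box reads the same on both strands. The Acta2 window lies at chr19:34255324-34255623 on the minus strand, with inexact boxes beginning 84 and 34 bases before the start. The Myl9 window lies at chr2:156775214-156775513 on the plus strand, with an exact box 161 bases and an inexact one 99 bases before the start. The first of 2 overlapping Ldb3 windows lies at chr14:34588632-34588931 on the minus strand, with an exact box 35 bases before the start.
Acta2: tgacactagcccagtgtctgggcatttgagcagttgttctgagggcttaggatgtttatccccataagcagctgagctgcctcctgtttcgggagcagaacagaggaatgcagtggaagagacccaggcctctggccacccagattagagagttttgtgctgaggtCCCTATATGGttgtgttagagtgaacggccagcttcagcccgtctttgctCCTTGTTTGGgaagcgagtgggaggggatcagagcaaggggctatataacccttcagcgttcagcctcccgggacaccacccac
Myl9: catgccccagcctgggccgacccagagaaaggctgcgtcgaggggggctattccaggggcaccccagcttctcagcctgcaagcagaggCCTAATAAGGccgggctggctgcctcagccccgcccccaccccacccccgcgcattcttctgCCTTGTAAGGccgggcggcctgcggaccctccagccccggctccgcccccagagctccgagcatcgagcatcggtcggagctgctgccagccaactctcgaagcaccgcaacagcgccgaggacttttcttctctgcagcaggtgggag
Ldb3: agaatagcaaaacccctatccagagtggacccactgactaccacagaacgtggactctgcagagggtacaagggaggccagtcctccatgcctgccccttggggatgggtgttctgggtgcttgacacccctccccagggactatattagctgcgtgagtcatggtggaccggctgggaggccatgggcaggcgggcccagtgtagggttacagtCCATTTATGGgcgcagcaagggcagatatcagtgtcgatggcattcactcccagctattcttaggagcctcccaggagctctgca
Of 32851 promoter windows of this length, 1.63% held an exact box and 9.98% held a box with at most 1 C or G in the core. The windows of Cnn1, Mylk, Lmod1 and Des held neither.

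The arrays had similar overall levels, with medians between 5.97 and 6.05 on the log2 scale. Prdm16, read by a probe set whose position relative to exon 9 is not given, was lower in 4OHT_Rosi than in EtOH_Rosi (log2 difference -0.71 ± 0.10 SE, limma adjusted p = 0.000646). Without rosiglitazone its difference was -0.17 ± 0.10 (adjusted p = 0.455). There Prdm16 read 6.49 to 6.84 in EtOH and 6.33 to 6.59 in 4OHT, near the median of 6.60 over all genes, where a loss may not be seen. The adipocyte marker Adipoq read between 10.50 and 11.11 on all arrays. Of 8 endothelial markers, Cdh5 and Pecam1 read 10.83 to 11.88 and 9.08 to 9.97, and Vwf 6.45 to 7.17, against a median of 6.60 over all genes. The mean of the 8 ran from 8.436 to 9.278 over the arrays. Of 17 skeletal and cardiac muscle markers, the regulators Myod1 and Myog read 6.24 to 6.58 and 6.46 to 6.99, and Acta1 7.41 to 8.14. The mean of the 17 ran from 6.088 to 6.296. The array 4OHT_Rosi 3 stood apart from the others on the third principal component, at 16.03 against -8.95 to 7.98 (5.67% of the variance). The first component (60.87%) separated arrays with rosiglitazone from those without, which lay at -27.14 to -19.97. On it 4OHT_Rosi 3 was the lowest array with rosiglitazone, at 14.93 against 21.86 to 29.79, and EtOH_Rosi 3 the highest. Results that rest on 4OHT_Rosi 3 are given with and without it, and likewise for EtOH_Rosi 3. Both arrays differed from their groups in the same 5 of the 10 contractile genes, in opposite directions.

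Acta2 encodes the smooth muscle alpha actin that defines myofibroblasts. Its probe set read 12.83, 12.99 and 12.96 in EtOH, 12.84, 12.87 and 12.93 in 4OHT, 12.10, 12.01 and 11.60 in EtOH_Rosi, with 12.18, 12.17 and 12.60 in 4OHT_Rosi (log2, arrays 1 to 3). All 6 arrays with rosiglitazone were below all 6 without it. Actg2, the gamma actin typical of gut smooth muscle, read 7.77, 7.87 and 8.10 in EtOH, 7.94, 7.93 and 7.84 in 4OHT, 7.26, 7.40 and 6.46 in EtOH_Rosi, with 7.69, 7.32 and 8.02 in 4OHT_Rosi. Its lowest array was EtOH_Rosi 3, and 4OHT_Rosi 3 lay within the range of the groups without rosiglitazone. Acta1 and Actc1, the skeletal and cardiac actins of closely related sequence, read 7.41 to 8.14 and 5.05 to 5.77 over the 12 arrays. Cross-hybridisation among the actins was not tested.

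Tagln encodes transgelin, an actin-bundling protein of smooth muscle. It read 10.67, 10.89 and 10.96 in EtOH, 10.83, 10.72 and 10.68 in 4OHT, 9.76, 9.62 and 9.35 in EtOH_Rosi, with 9.82, 9.92 and 10.45 in 4OHT_Rosi. As for Acta2, every array with rosiglitazone was below every array without it. Cnn1, calponin, which inhibits the myosin ATPase on thin filaments, read 8.01, 8.43 and 8.36 in EtOH, 8.07, 7.92 and 8.16 in 4OHT, 7.51, 7.53 and 6.62 in EtOH_Rosi, with 7.93, 7.76 and 8.70 in 4OHT_Rosi. The lowest and the highest of its 12 values were those of EtOH_Rosi 3 and 4OHT_Rosi 3. Lmod1, leiomodin, a nucleator of actin filaments, read 7.07, 7.17 and 7.35 in EtOH, 7.36, 7.21 and 7.49 in 4OHT, 6.91, 6.67 and 6.84 in EtOH_Rosi, with 6.85, 6.99 and 7.01 in 4OHT_Rosi. Its groups without rosiglitazone overlapped each other, as did those with it.

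Myh11, the smooth muscle myosin heavy chain, is the member most restricted to differentiated smooth muscle. It read 8.32, 8.53 and 8.56 in EtOH, 8.89, 8.81 and 9.01 in 4OHT, 7.73, 7.74 and 7.82 in EtOH_Rosi, with 8.28, 8.39 and 8.20 in 4OHT_Rosi. The EtOH and 4OHT_Rosi groups overlapped, 4OHT was above both and EtOH_Rosi below both. Myl9, the regulatory light chain of myosin, read 10.61, 10.90 and 10.90 in EtOH, 10.69, 10.63 and 10.67 in 4OHT, 9.37, 9.10 and 8.64 in EtOH_Rosi, with 9.29, 9.42 and 10.00 in 4OHT_Rosi. Mylk, the kinase that phosphorylates that light chain, read 7.63, 7.77 and 7.47 in EtOH, 7.81, 7.84 and 7.74 in 4OHT, 6.70, 6.85 and 6.77 in EtOH_Rosi, with 7.06, 6.80 and 7.10 in 4OHT_Rosi. For both genes every array with rosiglitazone was below every array without it, and the groups with and without 4-hydroxytamoxifen overlapped.

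Ldb3 encodes a PDZ and LIM domain protein of the Z-disc, best known from striated muscle. It read 6.57, 6.53 and 6.48 in EtOH, 6.92, 6.91 and 6.89 in 4OHT, 6.70, 6.82 and 6.84 in EtOH_Rosi, with 7.28, 7.13 and 7.25 in 4OHT_Rosi. The 4 groups did not overlap, in the rising order EtOH, EtOH_Rosi, 4OHT and 4OHT_Rosi. Des, the muscle intermediate filament protein desmin, read 7.67, 7.97 and 7.90 in EtOH, 8.25, 8.27 and 8.23 in 4OHT, 6.95, 6.67 and 6.87 in EtOH_Rosi, with 7.43, 7.44 and 7.44 in 4OHT_Rosi. Its 4 groups did not overlap either, with EtOH_Rosi lowest and 4OHT highest.

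**Figure D1:**
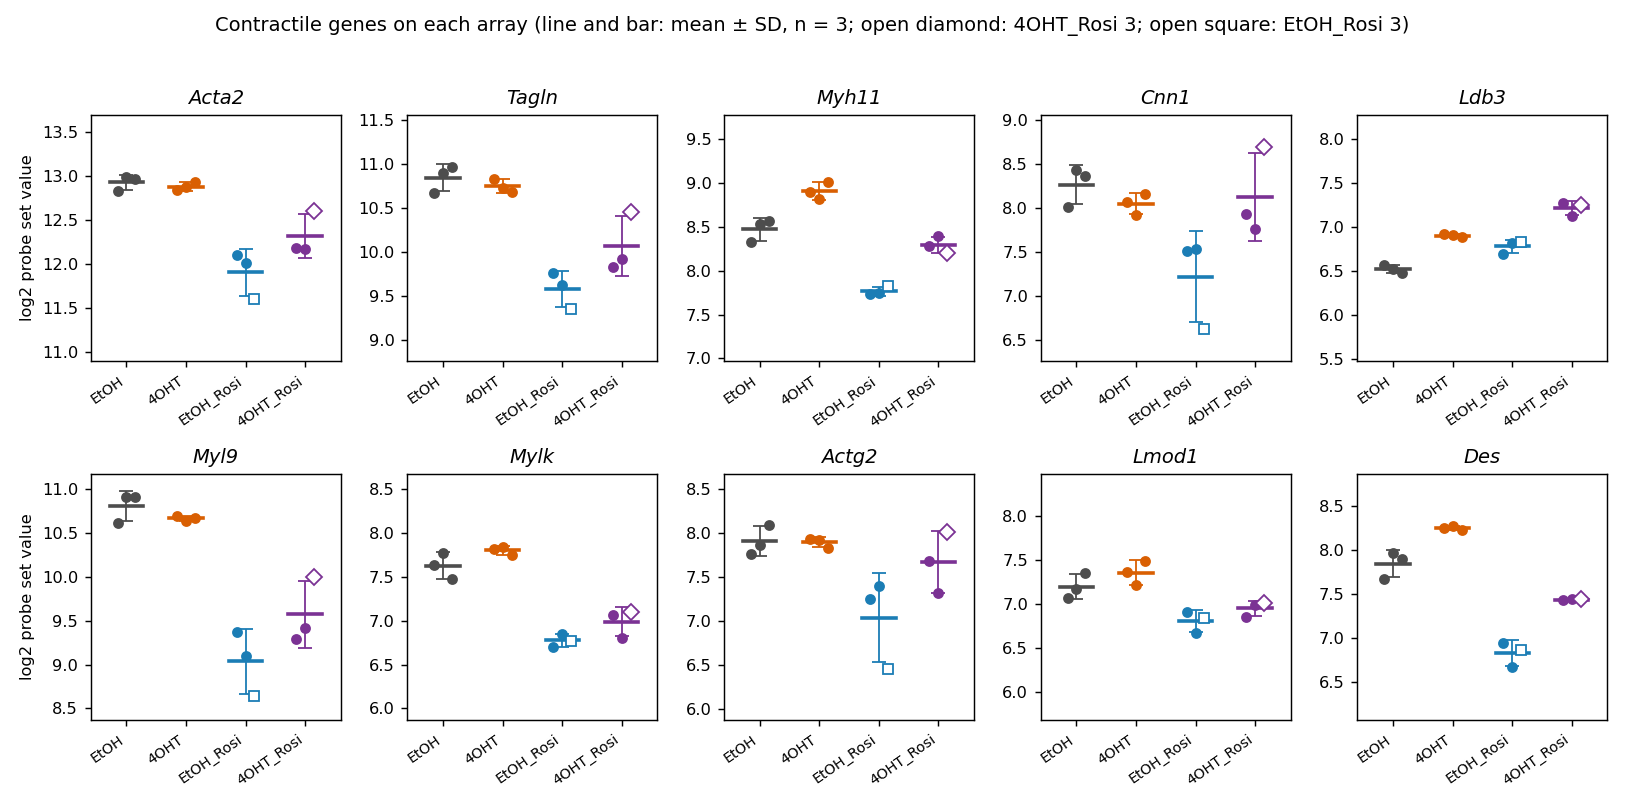
Log2 probe set values of the 10 genes on each of the 12 arrays, with one panel per gene and lines and bars for the mean ± SD of 3 arrays. For 9 genes the EtOH_Rosi arrays lie below the EtOH arrays, Ldb3 runs the other way, and the open symbols mark EtOH_Rosi 3 and 4OHT_Rosi 3.

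Cells differentiated with rosiglitazone after ethanol had less RNA of 9 of the 10 genes than cells differentiated without it, and more of Ldb3. In this comparison 16.3% of all genes were called lower and 14.4% higher at a limma adjusted p under 0.05. The median log2 difference of the 10 genes was -0.945, against 0.01 over all genes. In cultures measured in bulk, fewer cells of a type and less RNA per cell cannot be told apart. Myl9 fell most, from 10.80 ± 0.17 (SD, n = 3) to 9.04 ± 0.37, which is 3.40-fold (log2 difference -1.77 ± 0.18 SE, adjusted p = 6.39e-06). Tagln was 2.40-fold lower (-1.26 ± 0.15, adjusted p = 1.53e-05) and Acta2 2.03-fold lower (-1.02 ± 0.13, adjusted p = 3.19e-05). Desmin fell by 1.02 ± 0.08 on the log2 scale, with the smallest adjusted p of the 10 genes, 8.57e-07. Mylk, Myh11 and Lmod1 differed by -0.85, -0.71 and -0.39 (adjusted p = 7.27e-06, 1.11e-05 and 0.00488). For Cnn1 and Actg2 the differences were -1.05 ± 0.25 and -0.87 ± 0.21 (adjusted p = 0.00495 and 0.00535). Ldb3 rose by 0.26 ± 0.06 (adjusted p = 0.00419). The EtOH and EtOH_Rosi arrays did not overlap for any of the 10, a separation met in the falling direction by 20.9% of all genes and in the rising direction by 19.9%. The counts of 9 and 1 were the same without 4OHT_Rosi 3, without EtOH_Rosi 3 and without both, where 16.9%, 14.7% and 15.5% of all genes were called lower and 14.7%, 12.9% and 13.4% higher.

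After 4-hydroxytamoxifen, rosiglitazone was accompanied by lower levels of 7 genes and a higher level of Ldb3, where 12.1% of all genes were called lower and 11.6% higher. The median difference was -0.59 over the 10 genes and 0 over all genes. Myl9 was 2.13-fold lower (-1.09 ± 0.18, adjusted p = 0.000569), and Mylk and Des 1.75-fold and 1.76-fold lower (adjusted p = 1.85e-05 and 8.95e-06). The falls of Tagln, Myh11, Acta2 and Lmod1 were -0.68, -0.61, -0.56 and -0.40, with adjusted p between 6.14e-05 and 0.00553. Ldb3 rose by 0.31 ± 0.06 (adjusted p = 0.00161). Cnn1 and Actg2 did not pass the test, and their groups overlapped. Cnn1 differed by 0.08 ± 0.25 (95% interval -0.46 to 0.62, adjusted p = 0.873), and by -0.205 without 4OHT_Rosi 3 (adjusted p = 0.592). For Actg2 the difference was -0.23 ± 0.21 (interval -0.68 to 0.23, adjusted p = 0.52), and -0.40 without 4OHT_Rosi 3 (adjusted p = 0.235) or without both arrays numbered 3 of the rosiglitazone groups (adjusted p = 0.0254), the last being a call. Without 4OHT_Rosi 3 the falls of Acta2, Tagln and Myl9 were -0.705, -0.87 and -1.31.

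**Figure D2:**
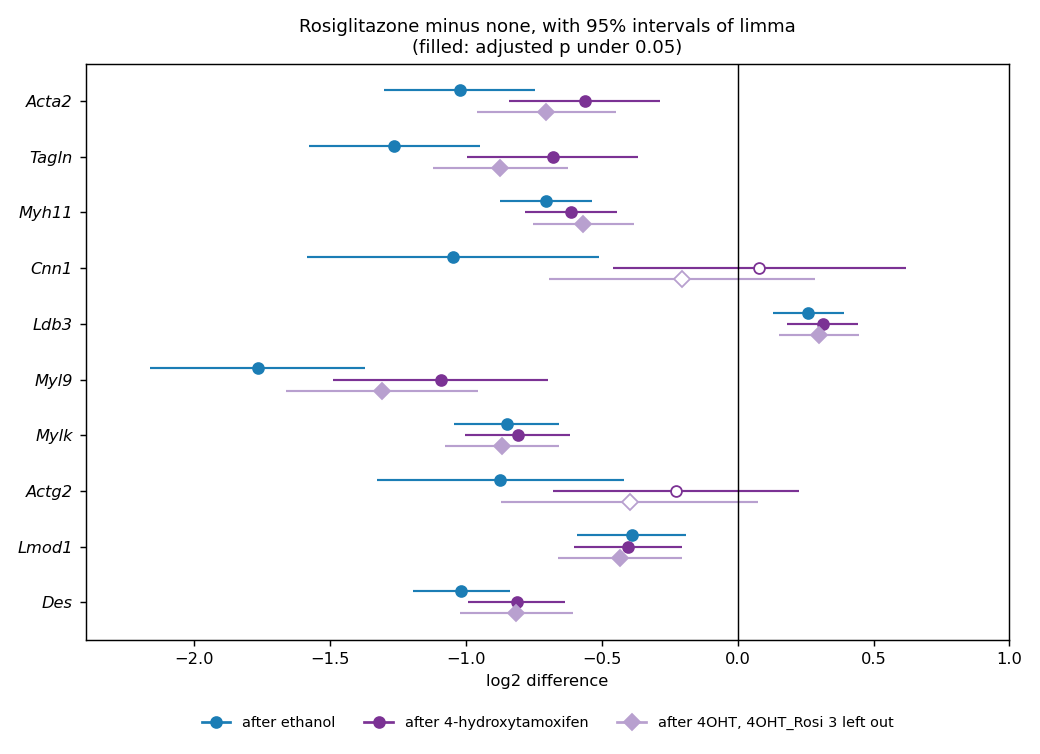
Log2 difference between cells with and without rosiglitazone for each gene, after ethanol, after 4-hydroxytamoxifen, and after 4-hydroxytamoxifen without array 4OHT_Rosi 3, with 95% intervals from limma and filled points for adjusted p under 0.05. Myl9 lies farthest left at -1.77, -1.09 and -1.31, and Ldb3 alone is called on the right in each setting.

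Without rosiglitazone, cells given 4-hydroxytamoxifen had more RNA of Myh11, Des and Ldb3 than cells given ethanol, and the other 7 genes did not pass the test. Of all genes 2.13% were called higher and 1.79% lower. Myh11 went from 8.47 ± 0.13 (SD, n = 3) to 8.90 ± 0.10, a 1.35-fold rise (0.43 ± 0.08 SE, adjusted p = 0.0066). Ldb3 rose 1.30-fold (0.38 ± 0.06, adjusted p = 0.00292) and Des 1.32-fold (0.40 ± 0.08, adjusted p = 0.0144), and the groups did not overlap for any of these 3, as for 11.2% of all genes in this direction. The call for Des was lost without EtOH 1 (adjusted p = 0.0502), without 4OHT 1 (0.055) and without 4OHT 2 (0.0629). The actins and transgelin overlapped between the groups: Acta2 differed by -0.05 ± 0.13, Actg2 by -0.01 ± 0.21 and Tagln by -0.10 ± 0.15, with adjusted p from 0.839 to 0.99. Myl9 and Cnn1 differed by -0.14 and -0.22, and Mylk and Lmod1 by 0.17 and 0.16 (adjusted p from 0.379 to 0.808). The 95% interval for Acta2, -0.32 to 0.23, bounds its difference more closely than that for Cnn1, -0.75 to 0.32.

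With rosiglitazone, all 10 differences between 4OHT_Rosi and EtOH_Rosi were above 0, and 4 passed the test, where 4.65% of all genes were called higher and 3.38% lower. The same 3 genes, Des, Ldb3 and Myh11, were among them. Des was 1.52-fold higher (0.61 ± 0.08, adjusted p = 0.000583), Ldb3 1.35-fold (0.43 ± 0.06, adjusted p = 0.000667) and Myh11 1.44-fold (0.53 ± 0.08, adjusted p = 0.00106). These 3 were called with and without 4OHT_Rosi 3, EtOH_Rosi 3 or both, with differences of 0.605 to 0.63, 0.42 to 0.46 and 0.53 to 0.60. The share of all genes called higher was then 3.19%, 3.12% and 2.48%. They were also called when any other single array was left out.

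Cnn1 had the largest difference in this comparison, 0.91 ± 0.25, with an adjusted p of 0.0405 just past the threshold. It was 0.625 without 4OHT_Rosi 3 (adjusted p = 0.143), 0.61 without EtOH_Rosi 3 (0.133) and 0.325 without both (0.194). The call was also lost without EtOH 2, EtOH 3, 4OHT_Rosi 1 or any of the 4OHT arrays (adjusted p from 0.0538 to 0.0564). Acta2, Tagln, Myl9 and Actg2 differed by 0.41, 0.49, 0.53 and 0.64, and did not pass (adjusted p = 0.0701, 0.06, 0.103 and 0.0886). Without both of those arrays their differences were 0.12, 0.18, 0.12 and 0.175 (adjusted p from 0.366 to 0.623). Leaving out EtOH_Rosi 1 brought Acta2, Tagln and Myl9 past the threshold (adjusted p = 0.0401, 0.0476 and 0.0394), as did leaving out 4OHT_Rosi 1 for Tagln (0.0307), and EtOH_Rosi 2 or 4OHT_Rosi 2 for Actg2 (0.0478 and 0.0452). Mylk and Lmod1 differed by 0.21 and 0.14 (adjusted p = 0.188 and 0.435). The median of the 10 genes was 0.51, and 0.37, 0.36 and 0.18 without 4OHT_Rosi 3, EtOH_Rosi 3 and both, against -0.01 over all genes.

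**Figure D3:**
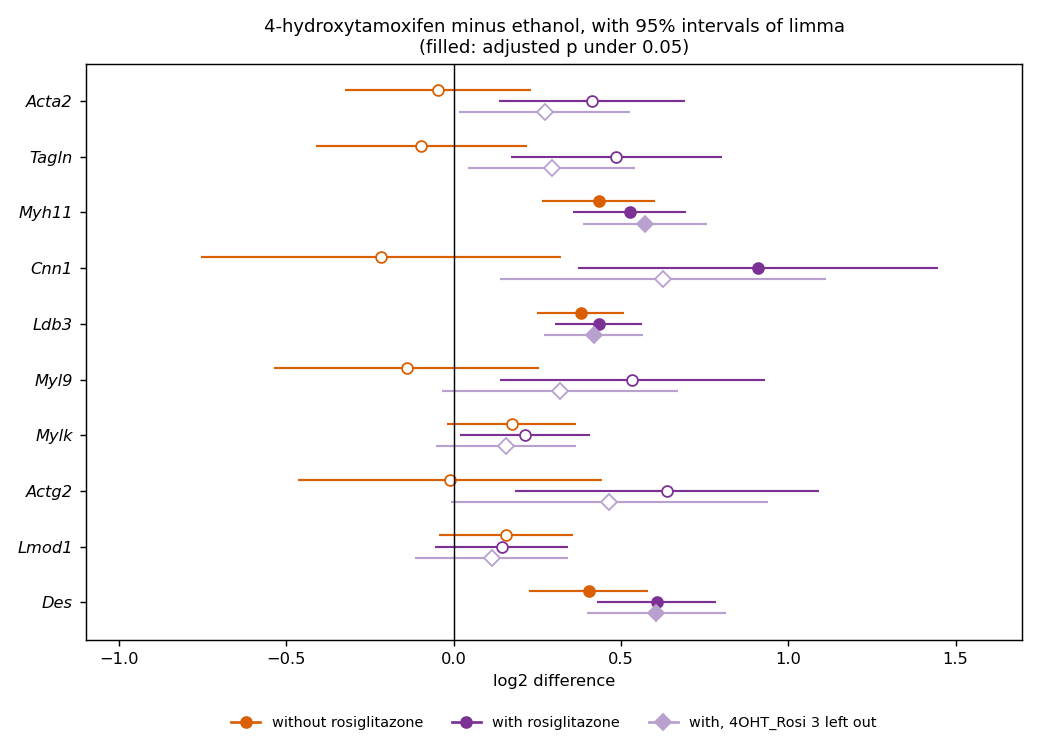
Log2 difference between cells given 4-hydroxytamoxifen and ethanol for each gene, without and with rosiglitazone and with rosiglitazone but without array 4OHT_Rosi 3, with 95% intervals from limma and filled points for adjusted p under 0.05. Myh11, Ldb3 and Des are called in all 3 settings, and Cnn1 at 0.91 is called with all arrays and not without 4OHT_Rosi 3.

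The difference between the 4-hydroxytamoxifen effects with and without rosiglitazone was tested as an interaction, and by limma none of the 10 genes was called (1.01% of all genes were). At an unadjusted p under 0.05 there were 5 genes, Cnn1, Tagln, Myl9, Acta2 and Actg2, as there were 3106 of the 22180. Their interaction terms were 1.13 ± 0.35, 0.58 ± 0.21, 0.67 ± 0.26, 0.46 ± 0.18 and 0.65 ± 0.30, with adjusted p from 0.159 to 0.351. Without 4OHT_Rosi 3 the unadjusted count was 2, Cnn1 and Tagln, and without EtOH_Rosi 3 it was also 2. For the genes called in both comparisons the terms were 0.09 for Myh11 (95% interval -0.15 to 0.33), 0.05 for Ldb3 (-0.13 to 0.24) and 0.20 for Des (-0.05 to 0.46). Mylk and Lmod1 had terms of 0.04 and -0.01. The 4-hydroxytamoxifen and rosiglitazone comparisons share arrays, so their values are set side by side here with no measure of likeness between them.

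The replicates numbered 3 of the rosiglitazone groups departed from their own groups in Acta2, Tagln, Cnn1, Myl9 and Actg2, in opposite directions. In 4OHT_Rosi 3 these 5 genes were above the mean of the other arrays of the group by 0.425, 0.58, 0.855, 0.645 and 0.515. In EtOH_Rosi 3 they were below theirs, at -0.455, -0.34, -0.90, -0.595 and -0.87. Myh11, Ldb3, Des and Lmod1 moved by no more than 0.135 in either array, and Mylk by 0.17 in 4OHT_Rosi 3. A departure of at least 0.3 in both arrays and in these directions, a limit set after the values were seen, was met by 203 of all 22180 genes (0.915%). The opposite pattern was met by 78. On 4OHT_Rosi 3 the mean of the fibroblast and progenitor markers was 9.878, against 9.497 and 9.661 on the other arrays of its group, and the mean of the adipocyte markers 11.645, against 11.686 and 11.809. On EtOH_Rosi 3 the fibroblast and progenitor mean was 9.477, against 9.756 and 9.599, and the adipocyte mean 11.528, against 11.544 and 11.618. The fibroblast and progenitor mean thus departed in opposite directions on these arrays, and the adipocyte mean was the lowest of its group on both. On EtOH_Rosi 3 that rank rests on 1 adipocyte marker, Lep, which read 5.77, 6.34 and 5.50 in EtOH_Rosi. Without Lep, EtOH_Rosi 3 is not the lowest. The part of these markers in the departures was not tested.

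**Figure D4:**
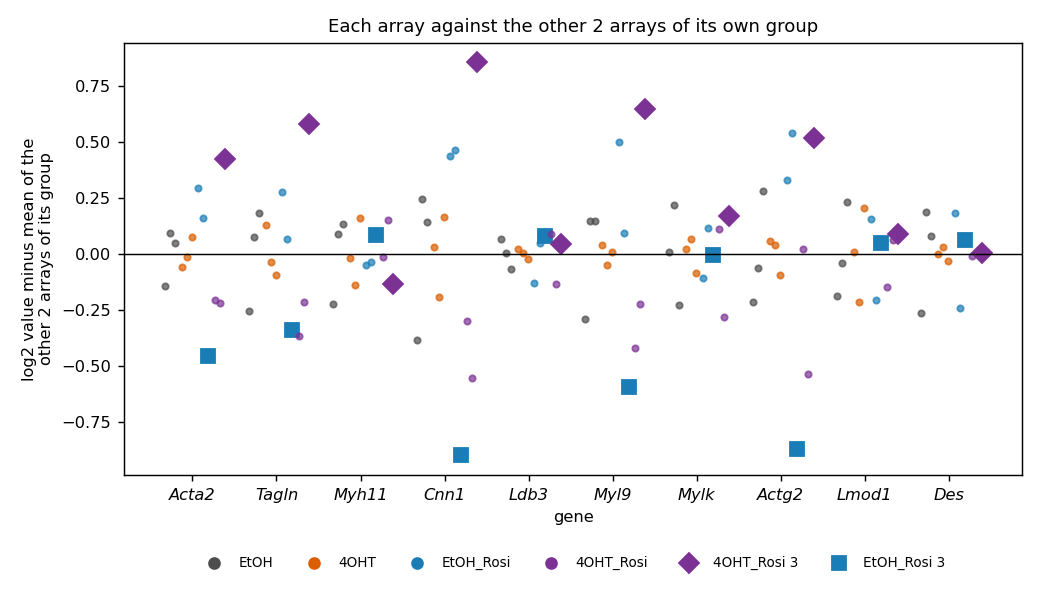
Each array's log2 value minus the mean of the other arrays of its group, by gene, with large symbols for 4OHT_Rosi 3 and EtOH_Rosi 3. The large symbols lie on opposite sides of 0 for Acta2, Tagln, Cnn1, Myl9 and Actg2, by at least 0.34, and near 0 for Myh11, Ldb3 and Des.

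Over the 12 arrays, 9 of the genes followed the mean of the other members and Ldb3 did not. As a description over arrays that share their groups, Pearson's r ran from 0.777 for Cnn1 and 0.855 for Lmod1 to 0.964 for Tagln and 0.975 for Acta2, and was -0.24 for Ldb3. Without 4OHT_Rosi 3 it was 0.856 for Cnn1 and -0.303 for Ldb3. Among other genes, leaving out predicted genes and those named only by a clone or model number, the 5 whose values were most like the mean profile of the 10 were Actn1, Dlg5, Timp3, Ccl7 and Ccn2, with r between 0.984 and 0.993. Timp3, an inhibitor of matrix metalloproteinases, averaged 10.72 in the EtOH arrays, 10.80 after 4-hydroxytamoxifen alone, 9.68 in EtOH_Rosi and 10.25 in 4OHT_Rosi. Ccn2, a matricellular growth factor induced by TGF-beta, averaged 10.38, 10.54, 9.10 and 9.92 in the same groups.

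Most other genes of the smooth muscle cytoskeleton were also lower under rosiglitazone. Of 20 measured of 21 listed, 17 were lower with rosiglitazone after ethanol and 14 after 4-hydroxytamoxifen, with medians of -0.64 and -0.42, where 16.3% and 12.1% of all genes were called lower. Csrp1, a LIM protein of smooth muscle, differed by -0.80 and -0.55 (adjusted p = 5.81e-07 and 1.94e-05), and Flna, filamin A, by -1.04 and -0.66 (8.79e-07 and 6.68e-05). Synpo2, an actin-bundling protein, fell by 0.62 after ethanol (adjusted p = 3.75e-06), and Filip1l by 0.47 after 4-hydroxytamoxifen (0.00033). Myl6, the essential light chain, was the 1 gene higher after ethanol (0.35, adjusted p = 0.0254), a call lost without EtOH 2, EtOH 3, EtOH_Rosi 2 or EtOH_Rosi 3 (adjusted p up to 0.118).

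Between 4OHT_Rosi and EtOH_Rosi, 9 of these 20 genes were higher and 1, Smtn, was lower, where 4.65% of all genes were called higher and 3.38% lower. Actn1, an alpha-actinin that crosslinks actin, rose by 0.52 (adjusted p = 0.00814), Svil, supervillin, by 0.31 (0.00995), and Smtn, smoothelin, fell by 0.36 (0.012), a call lost without 4OHT_Rosi 2 (0.0504). The count of 9 depended on single arrays: it was 2 without 4OHT_Rosi 3 (3.19% of all genes then called higher) or EtOH_Rosi 2, 4 without EtOH_Rosi 3, EtOH 2, 4OHT 1 or 4OHT 2, and 5 without EtOH 1 or 4OHT 3. Without rosiglitazone limma called none of the 20 for 4-hydroxytamoxifen. At an unadjusted p under 0.05 there were 2, and 3550 of all 22180 genes. For the interaction none was called either. At an unadjusted p under 0.05 there were 15, all positive, and 3106 of all genes in either direction. The median interaction of the 20 genes was 0.33, and 0.24, 0.29 and 0.21 without 4OHT_Rosi 3, EtOH_Rosi 3 and both.

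A list of genes linked to myocardin, SRF and TGF-beta holds regulators and also targets such as Ccn2. Of these, 15 of 23 measured (of 24 listed) were lower with rosiglitazone after ethanol and 3 were higher. Of all genes 16.3% were called lower and 14.4% higher, so the count of 3 is near the share of all genes. Tgfb3, a TGF-beta ligand, differed by -1.28 (adjusted p = 9e-07), Tgfbr2, its type II receptor, by -0.47 (7.86e-05), and Fhl1, a LIM-only protein of muscle, by 0.64 (2.77e-06). The coactivators Myocd, Mrtfa and Mrtfb differed by -0.43, -0.39 and -0.23 (adjusted p = 0.00278, 0.000279 and 0.00357), whereas Srf itself differed by -0.02 (adjusted p = 0.886). Myocd read 6.43 to 6.53 in EtOH and 5.87 to 6.27 in EtOH_Rosi, below the median gene at 6.60, so its signal was low. After 4-hydroxytamoxifen 11 were lower and 3 higher (12.1% and 11.6% of all genes), with 6 lower without 4OHT 1 and 7 without 4OHT 3, 4OHT_Rosi 1 or 4OHT_Rosi 2. Tgfb3, Tgfb2 and Klf4, a factor known to repress smooth muscle genes, differed by -1.19, -0.94 and -0.76 (adjusted p = 2.56e-06, 1.11e-05 and 1.86e-05).

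For 4-hydroxytamoxifen 2 of these 23 genes were called without rosiglitazone, 1 in each direction, where 2.13% of all genes were called higher and 1.79% lower. With rosiglitazone 1 was higher and 2 lower, against 4.65% and 3.38% of all genes. These counts are close to the shares of all genes and are not a result about the list. Without rosiglitazone Fhl1 rose by 0.37 (adjusted p = 0.00348) and Tgfbr2 fell by 0.26 (0.0484), the latter lost in 9 of the 12 fits that left out 1 array. With rosiglitazone Ccn2 rose by 0.81 (adjusted p = 0.0132), lost without EtOH_Rosi 3 (0.0559). Tgfbr2 and Tgfb2 fell by 0.29 and 0.38 (adjusted p = 0.017 and 0.0292). Those calls were lost without EtOH_Rosi 1, EtOH_Rosi 3 or 4OHT_Rosi 3 for Tgfbr2 (adjusted p up to 0.0679), and without EtOH_Rosi 2, EtOH_Rosi 3, 4OHT_Rosi 1 or 4OHT_Rosi 2 for Tgfb2 (up to 0.112). Fhl1 had the 1 interaction called, -0.44 (adjusted p = 0.0335), which was lost in 8 of 12 such fits, 4OHT_Rosi 3 among the arrays left out.

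Markers of the other cell types that such cultures can hold also moved with rosiglitazone. After ethanol 8 of 8 endothelial markers were lower, as were 7 of 8 macrophage markers, 7 of 9 fibroblast and progenitor markers and 6 of 8 pericyte markers. The corresponding counts after 4-hydroxytamoxifen were 7, 5, 7 and 6. Of all genes 16.3% were called lower after ethanol and 12.1% after 4-hydroxytamoxifen. Rgs5, a pericyte marker, differed by -2.09 and -2.07 in these comparisons. Cspg4, another, was the 1 pericyte marker that was higher, by 1.59 and 1.07. The pericyte mean level ran from 8.80 to 8.861 in EtOH, 8.602 to 8.725 in 4OHT, 8.149 to 8.296 in EtOH_Rosi and 8.001 to 8.254 in 4OHT_Rosi. The fibroblast and progenitor mean ran from 10.537 to 10.643, 10.494 to 10.609, 9.477 to 9.756 and 9.497 to 9.878 in the same order. Of the adipocyte markers 4 of 10 were higher and 3 lower after ethanol, and of the skeletal and cardiac muscle markers 1 of 17, Actn3, was lower (2 lower and 1 higher without EtOH_Rosi 3). The part of these markers in the fall of the contractile genes was not tested.

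Between 4OHT_Rosi and EtOH_Rosi, 1 gene of each of the 6 marker lists was called, where 4.65% of all genes were called higher and 3.38% lower, so these counts are near the shares of all genes. Kdr (endothelial), Dgat2 (adipocyte) and Tnnt2 (skeletal and cardiac muscle) were higher by 0.49, 0.43 and 0.53, and were called whichever single array was left out. Cspg4 (pericyte), Lyz2 (macrophage) and Pdgfra (fibroblast and progenitor) differed by -0.35, -0.20 and -0.39, and lost their calls in 10, 9 and 3 of the 12 fits without 1 array, all 3 without EtOH_Rosi 1 or 4OHT_Rosi 1. Single arrays moved the counts: 3 skeletal and cardiac muscle markers were higher without EtOH_Rosi 3, 2 adipocyte markers were higher without 4OHT_Rosi 1 or EtOH_Rosi 2, 2 pericyte markers were lower without 4OHT_Rosi 2, and 2 fibroblast and progenitor markers were higher without 4OHT_Rosi 1. For 4-hydroxytamoxifen without rosiglitazone, 2.13% of all genes were called higher and 1.79% lower. Pi16 and Pdgfra (fibroblast and progenitor) differed by 1.02 and -0.53, called whichever array was left out. Lower were 2 of 8 macrophage and 1 of 8 pericyte markers (0 to 3 and 0 to 2 without 1 array). Of 10 adipocyte markers 2 were higher (0 to 2) and 1 lower. No endothelial, skeletal or cardiac marker was called. The part of these markers in the differences of Des, Ldb3, Myh11 and Cnn1 was not tested. The mean level of the 10 contractile genes ran from 7.781 to 8.099 in EtOH_Rosi and from 8.334 to 8.677 in 4OHT_Rosi, the highest being 4OHT_Rosi 3.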

How the data were processed

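The measurements are log2 probe set values, as deposited by the authors with 2 decimals: 41345 probe sets on 12 arrays. Per the submitters' processing notes, Affymetrix Expression Console made them. Of its version, summary method and normalization nothing is given in the sources used here. No raw intensities were used. Of the probe sets, 23521 carried 1 gene symbol. Where several shared a gene (1082 genes), the brightest by mean over the 12 arrays was kept, which left 22180 genes, with no filter on dim ones. The number of arrays limits the precision.

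All 12 arrays entered 1 limma fit (version 3.58.1, R 4.3.3) with a mean for each group and moderated variances. The fit had 8 residual degrees of freedom, to which the prior added 5.07. The script was tested on simulated data. Calls are Benjamini-Hochberg adjusted p under 0.05 over all genes within a comparison. The alternatives were keeping genes above the 25th or the 50th percentile of level, quantile normalization, median centring, array weights, an intensity trend, the mean of all probe sets, only the groups compared, a replicate block and leaving out each array. Leaving out EtOH_Rosi 3 and 4OHT_Rosi 3 together was chosen after seeing the data.

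The 10 genes and the lists were chosen with earlier results of these data known. The text names the 10 members, up to 3 called genes with the smallest adjusted p per pathway list and comparison, and the 5 genes most like the members' mean profile. Myocd, Mrtfa, Mrtfb, Srf, Myl6, the markers and the related actins are named as context, chosen after their values were seen. One further gene list is not reported here. Promoters are from RefSeq, GRCm38.p6. Matplotlib 3.10.9 (Python 3.11.15) drew the figures.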

Additional observations from a re-analysis of the deposited data

How the results depend on the processing

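Across the planned settings and the added one, the counts of genes called higher or lower in each comparison stayed within 1.5 times their values except in 1 case. Leaving out single arrays gave 3 to 7 genes called higher for 4-hydroxytamoxifen with rosiglitazone (7 without EtOH_Rosi 1), 2 to 3 without rosiglitazone, 9 lower and 1 higher for rosiglitazone after ethanol, 7 lower and 1 higher after 4-hydroxytamoxifen, and 0 for the interaction. Over all genes the calls moved more: for 4-hydroxytamoxifen without rosiglitazone 472 were higher and 396 lower, and with array weights 1167 and 1075. With rosiglitazone the 1032 and 750 became 499 and 330 when only the groups compared were fitted. The interaction's 116 and 107 became 43 and 50 without 4OHT_Rosi 3.

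Same-numbered arrays did not deviate together: of 18 pairs 0 correlated above 0.1 (-0.24 to 0.079). With the replicate block 3 genes in place of 4 were called higher for 4-hydroxytamoxifen with rosiglitazone. Cnn1 in that comparison was not called with the block (0.91, adjusted p = 0.0747), with only the groups compared (0.143) or with array weights (0.0991). Acta2 passed with the 50th percentile filter (0.0398), and Tagln with the 25th and 50th (0.0493 and 0.0348), where fewer genes were tested. No other call among the 10 genes changed with the block. The interaction could not be fitted to only 2 groups.

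Differences near 0 that were not called changed sign. Cnn1 under rosiglitazone after 4-hydroxytamoxifen went to -0.0401 with array weights and to -0.205 without 4OHT_Rosi 3, alone or with EtOH_Rosi 3 (highest when 1 array was left out, 0.265). Actg2 for 4-hydroxytamoxifen alone went to 0.018 with array weights, 0.0067 with median centring, 0.0833 without EtOH 3 and 0.0217 without 4OHT 3 (lowest, -0.0817). The Mylk interaction went to -0.0333 without EtOH 2, -0.0167 without 4OHT_Rosi 3 and -0.0183 without both rosiglitazone arrays numbered 3 (highest, 0.133). The Lmod1 interaction went to 0.0139 with array weights, and to 0.05, 0.055, 0.0383, 0.0033 and 0.0367 without EtOH 1, 4OHT 3, EtOH_Rosi 1, EtOH_Rosi 3 and 4OHT_Rosi 1 (lowest, -0.09). The cause of these changes was not tested. Array signal limits Ldb3 and Lmod1, whose mean levels lie close to the median gene (6.60), where differences may be compressed. Other members came as close to it under rosiglitazone. Mylk and Des read as low as 6.70 and 6.67 in EtOH_Rosi, and Actg2 and Cnn1 read 6.46 and 6.62 on EtOH_Rosi 3.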
